A study of Mus musculus with 42 samples.

Results

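Cytochrome P450 enzymes of families 1 to 3 are represented by 58 of the 54532 genes in the count table, and their transcripts were followed here by time of day, by diet and by tissue content of the libraries. The members are the protein-coding genes whose symbol is Cyp, a family number from 1 to 3, a subfamily letter and a gene number. The rule uses names only, and no measured value entered it. It leaves out the pseudogenes and 3 protein-coding genes whose symbols carry further letters, Cyp2ab1, Cyp3a41a and Cyp3a41b.

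RNA labelled as liver came from female C57BL/6 mice, given as C57BL/6NHsd in the study's methods, that were 3 weeks old when feeding began. The mice ate either the AIN93G diet, labelled as the standard diet with 16% of energy from fat, or a high-fat diet (HFD) with 45% of energy from fat, for 3 weeks. All had free access to food and were housed in groups, with lights on at zeitgeber time (ZT) 0 and off at ZT 12. Poly(A) RNA of 3 mice per diet was sequenced at 7 time points, every 4 h from ZT 0 to ZT 24, which gives 42 libraries of 14592481 to 21368409 counts. The question put to these libraries is whether the HFD changes the daily course of liver transcripts.

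P450 enzymes are haem proteins of the endoplasmic reticulum that insert an oxygen atom into steroids, fatty acids, drugs and environmental chemicals. They draw electrons from NADPH through the P450 reductase Por, and some also through cytochrome b5. Families 1 to 3 carry most of the drug and foreign-compound metabolism of liver, where many members lie in hepatocytes around the central vein. Their genes respond to the receptors AhR, PXR and CAR, several follow the clock through the PAR bZIP factors DBP, TEF and HLF, and in mice some differ between the sexes.

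Before any result, the libraries themselves need description. Alb, which encodes albumin, stood at 66434 to 112000 CPM (counts-per-million of the library) in 32 libraries, which are called liver libraries, 13 of them AIN93G and 19 HFD. In the other 10 libraries it stood at 18.7 to 81.0 CPM, and the summed level of 10 adipocyte markers was 25010 to 37330 CPM there against 66.0 to 261 CPM in liver libraries. These 10 are called adipocyte-rich. They comprise the AIN93G group at both ZT 16 and ZT 20, whole, and replicates 1 and 2 of both diets at ZT 24. Comparisons of the diets within liver libraries were therefore limited to ZT 0, 4, 8 and 12, and at ZT 16 and ZT 20 diet and tissue content cannot be told apart.

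The ZT 12 libraries did not share 1 state of the clock. Dbp stood at 91.4, 0.369 and 0.129 CPM in the AIN93G libraries and at 59.0, 76.1 and 0.130 CPM in the HFD libraries of that time. High Dbp was thus seen in AIN93G replicate 1 and in HFD replicates 1 and 2, so clock state was not balanced between the diets there. The phase labels of ZT 12 were also mixed, with dark, light and dark for AIN93G replicates 1 to 3 and dark, dark and light for the HFD. At ZT 0 the AIN93G values of Dbp were 0.264 to 0.834 CPM, and at ZT 8 they were 107 to 168 CPM. The livers of ZT 24, 1 per diet, had Dbp at 148 CPM on AIN93G and 66.1 CPM on the HFD. Their clock state was thus unlike that of ZT 0, although ZT 24 is the same hour of the light cycle. The tests over several times were repeated without ZT 12, and calls that changed are given below. All mice are labelled female, and 4 Y-linked genes reached at most 0.251 CPM in any library. Xist was 1044, 109 and 0.606 CPM in the HFD libraries of ZT 16, the last of which also had low levels of several members, described below.

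The members together were abundant in liver, and a few genes made up most of the transcript. Levels between genes are compared as RPKM, which is CPM divided by gene length in kilobases. The summed RPKM of the 58 members was 7205 to 11826 in liver libraries, with a median of 8986. Of the members, 36 had more than 3 counts in every liver library, and 3 (Cyp2c66, Cyp2j11 and Cyp2j13) had no count in any of the 42 libraries. Testing needed 25 counts or more on average across the 42 libraries, which 41 members met, with Cyp2g1 just above it at 26.9 and Cyp2c55 just below it at 19.4.

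**Figure D1:**
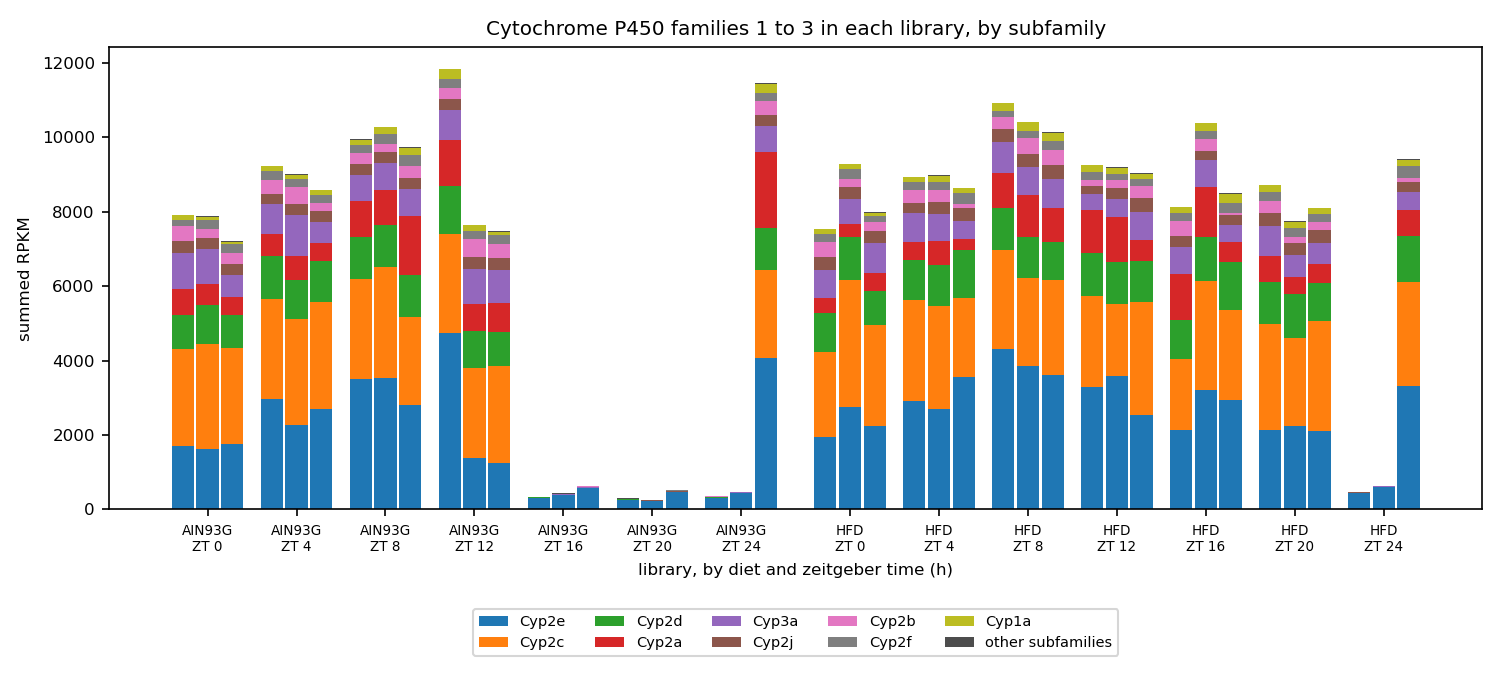
Summed RPKM of the members in each of the 42 libraries, 1 bar per library grouped by diet and ZT, with colours for the subfamilies. Liver libraries reached 7205 to 11826 RPKM, mostly Cyp2e and Cyp2c, and the 10 low bars are the adipocyte-rich libraries at 257 to 643 RPKM.

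Cyp2e1, which oxidises ethanol, acetone and small solvents, led with a median of 2774 RPKM and a range of 1247 to 4740, which was 16.7 to 41.2% of the summed level. The next were Cyp2c69 (median 484 RPKM), Cyp2d26 (481), Cyp2d10 (459) and Cyp2c70 (373), of which Cyp2c70 makes the muricholic acids of mouse bile. Cyp2c68 followed at 353 RPKM, Cyp2a4, a steroid hydroxylase, at 325, and Cyp3a11, the main drug-oxidising enzyme of its subfamily, at 324. Those 8 genes held a median of 62.9% of the summed RPKM.

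By subfamily, Cyp2e contributed 30.5% of the summed level with 1 gene and Cyp2c 30.02% with 15 genes, all on chromosome 19. Cyp2d held 12.3% with 8 genes on chromosome 15, and Cyp3a with 7 genes on chromosome 5 and Cyp2a with 4 genes on chromosome 7 held 7.62% and 7.61%. The leading genes of the smaller subfamilies were Cyp2j5, an arachidonic acid epoxygenase, at 284 RPKM, Cyp2b9 at 282, Cyp2f2, which oxidises naphthalene, at 222, and Cyp1a2, which oxidises caffeine and aromatic amines, at 156. Far below them stood Cyp2r1, a vitamin D 25-hydroxylase, at 6.72 RPKM, Cyp2u1, a fatty acid hydroxylase, at 3.39, and Cyp2g1, known from olfactory mucosa, at 0.695. The medians of Cyp2t4 (0.175 RPKM), Cyp2s1 (0.105) and Cyp1b1 (0.0730) were lower again, and that of Cyp2w1 was 0.

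Many members are near copies of a neighbour, and the counts of these genes are uncertain for that reason. Of the 58, 37 shared at least 1 stretch of 100 exon bases with another gene of GENCODE M21. The shared part was 35.4% of all such stretches in Cyp2c69, 34.4% in Cyp2c40, 23.7% in Cyp2c67 and 19.8% in Cyp2c68. It was 12.2% in Cyp2d11, 12.1% in Cyp2a5, 11.7% in Cyp2d10 and 11.2% in Cyp2a4. How the deposited counts treated reads that match several genes is not given in the sources used here.

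The members differed in how closely the 3 mice of a group lay together. On the log2 scale, after adding 0.5 to CPM, the SD within groups of ZT 0 to ZT 12 had a median of 0.34 over the 41 members tested, against 0.27 over all 13394 genes tested. It was largest for Cyp3a16 (2.26), Cyp3a44 (1.24), Cyp2b13 (1.10), Cyp2a22 (1.04), Cyp2b10 (0.94) and Cyp2a5 (0.87).

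Time of day came through in a small set of members, among them Cyp2a5, the coumarin and nicotine hydroxylase. Over ZT 0 to ZT 12 in both diets, 4 of 41 members passed edgeR's quasi-likelihood F-test for time at an adjusted p under 0.05, where 6.32% of all genes tested did. They were Cyp2a5, Cyp2g1, Cyp1a2 and Cyp2c23, an arachidonic acid epoxygenase, and each was lowest at ZT 0 and highest at ZT 8. An adjusted p printed beside a rise or a fold range in time belongs to the test over all times of the fit. No pair of times was tested alone. On the HFD from ZT 0 to ZT 20 the time test was passed by Cyp2a5, Cyp2g1 and Cyp3a59, 3 of 41 members, where 2.29% of all genes passed. DESeq2 called 7 and 8 members in these tests, where it called 10.7% and 11.3% of all genes. With every gene with a count kept, edgeR called 7 and 18 members, where it called 4.4% and 8.16% of all genes. Without ZT 12 the counts were 6 in both diets, the 4 named members among them, and 5 on the HFD, where the share of all genes also rose, to 9.79% and 4.49%. On the HFD, 5 members were also called without replicate 3 of ZT 12 alone, against 7.73% of all genes.

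Cyp2a5 (chromosome 7, 26835305 to 26843548, plus strand, mm10) and Cyp2a4 (chromosome 7, 26307169 to 26315088, plus strand) are close copies whose time courses can be set side by side, and the sequences directly before the 2 genes are shown for that reason. They are from RefSeq on GRCm38.p6, plus strand, for Cyp2a5 at chr7:26835089-26835304 and for Cyp2a4 at chr7:26306942-26307168, and end at the last base before the annotated gene. Capitals mark paired bases that differ.
Cyp2a5: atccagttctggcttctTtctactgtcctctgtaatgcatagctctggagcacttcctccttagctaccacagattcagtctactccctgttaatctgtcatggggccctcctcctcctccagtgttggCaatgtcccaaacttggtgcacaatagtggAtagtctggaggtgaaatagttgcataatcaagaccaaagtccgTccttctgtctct
Cyp2a4: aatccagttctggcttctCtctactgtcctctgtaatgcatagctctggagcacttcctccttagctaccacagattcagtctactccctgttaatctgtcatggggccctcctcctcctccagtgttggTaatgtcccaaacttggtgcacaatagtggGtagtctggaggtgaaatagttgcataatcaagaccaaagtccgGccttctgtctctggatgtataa
Of 216 aligned bases 212 were identical, 98.1%, and 4 differed.

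At ZT 0 Cyp2a5 was at 171, 67.3 and 65.4 CPM in the AIN93G libraries and at 194, 74.8 and 64.9 CPM in the HFD libraries. At ZT 8 it was at 306, 603 and 854 CPM on AIN93G and at 703, 1081 and 935 CPM on the HFD. Every library of ZT 8 lay above every library of ZT 0, in both diets. The mean rose 7.04-fold from ZT 0 to ZT 8 over both diets (edgeR, adjusted p = 0.00252). On the HFD alone the mean rose 8.15-fold, from 111 to 906 CPM (edgeR, adjusted p = 0.0120).

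After ZT 8, Cyp2a5 on the HFD stood at 632, 662 and 167 CPM at ZT 12, at 768, 909 and 408 CPM at ZT 16 and at 353, 306 and 169 CPM at ZT 20. The ZT 12 values fell apart with the state of the clock given above, the library with the low Dbp being the lowest. The AIN93G libraries of ZT 12 did the same, with 1320 CPM in the library with high Dbp and 274 and 178 CPM in the other two. At ZT 24, with 1 liver per diet and no test, Cyp2a5 was at 2015 CPM on AIN93G and 498 CPM on the HFD. The time call for Cyp2a5 was kept when any 1 library was left out, in all 24 fits of both diets and all 18 fits of the HFD.

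Cyp2g1 (chromosome 7, 26808892 to 26821205, plus strand) lies near Cyp2a5 and had the widest fold range of the members called, at a low level. It was at 1.06, 0.331 and 0.251 CPM at ZT 0 and 3.51, 4.86 and 6.14 CPM at ZT 8 on AIN93G. On the HFD it was at 0.860, 0.541 and 0.224 CPM at ZT 0 and 4.52, 5.50 and 3.25 CPM at ZT 8. The ranges of the 2 times did not overlap in either diet. The mean rose 8.51-fold from ZT 0 to ZT 8 over both diets (edgeR, adjusted p = 0.00144). On the HFD the means covered a 9.78-fold range (edgeR, adjusted p = 0.0333), a call lost in 7 of 18 fits that left out 1 library.

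Cyp1a2 (chromosome 9, 57676937 to 57683703, minus strand) was at 235, 198 and 149 CPM at ZT 0 and at 276, 340 and 380 CPM at ZT 8 on AIN93G. On the HFD it was at 256, 243 and 166 CPM at ZT 0 and at 389, 464 and 475 CPM at ZT 8. The ZT 8 libraries lay above the ZT 0 libraries in each diet. The mean over both diets rose 1.86-fold (edgeR, adjusted p = 0.0119), and the call was kept in all 24 fits without 1 library. On the HFD alone the time test of Cyp1a2 gave an adjusted p of 0.0536.

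Cyp2c23 (chromosome 19, 44005022 to 44029208, minus strand) had a mean of 179 CPM at ZT 0 and 284 CPM at ZT 8, a 1.59-fold rise at an adjusted p of 0.0447 in edgeR. That call was lost in 17 of 24 fits that left out 1 library.

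Cyp3a59 (chromosome 5, 146079257 to 146113287, plus strand) was tested over the longer HFD course. It was at 56.7, 41.2 and 46.7 CPM at ZT 8 and at 16.2, 18.9 and 20.8 CPM at ZT 12, so that every library of ZT 8 lay above those of ZT 12. The means differed 2.59-fold (edgeR, adjusted p = 0.0230). Without replicate 1 or replicate 3 of HFD ZT 8 the call was lost, and 1 member was then called in place of 3, where 1.86% or 1.32% of all genes were called.

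A 24 h cosine was fitted to the HFD libraries of ZT 0 to ZT 20, the span with liver at every time. It was passed by 5 of 41 members in edgeR, where 7.34% of all genes passed, and by 8 in DESeq2, where 12.4% did. The amplitude, measured from the mean to the peak on the log2 scale, was 1.64 for Cyp2g1 with a peak at ZT 7.82 (adjusted p = 0.00499). For Cyp2a5 it was 1.38 with a peak at ZT 11.8 (adjusted p = 0.00920). Cyp3a59 had 0.57 at ZT 5.98 (adjusted p = 0.0221) and Cyp2e1 0.42 at ZT 9.20 (adjusted p = 0.00819). The standard errors from limma on the same libraries were 0.28, 0.27, 0.13 and 0.09 for these amplitudes and 0.68, 0.81, 0.91 and 0.85 h for the peaks, in that order.

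Cyp2e1 had the smallest amplitude of those called and the highest level. On the HFD its libraries were at 4191, 5946 and 4824 CPM at ZT 0, at 9289, 8313 and 7768 CPM at ZT 8 and at 4598, 4840 and 4533 CPM at ZT 20. All 3 libraries of ZT 8 lay above those of the other 2 times. On AIN93G the libraries were at 3664, 3506 and 3793 CPM at ZT 0 and 7537, 7614 and 6026 CPM at ZT 8, again without overlap. The factor test of time, which sets no shape, gave Cyp2e1 an adjusted p of 0.0695 on the HFD in edgeR.

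Cyp2a4, the close copy of Cyp2a5, had a fitted amplitude of 0.98 with a peak at ZT 13.4 (edgeR, adjusted p = 0.0357). On the HFD it was at 192, 236 and 573 CPM at ZT 0, at 665, 648 and 456 CPM at ZT 8 and at 1181, 1290 and 546 CPM at ZT 12. The ranges of ZT 0 and ZT 8 overlapped, unlike those of Cyp2a5. The call was lost with limma (adjusted p = 0.0530), without ZT 12 (adjusted p = 0.103) and in 8 of 18 fits without 1 library. The median amplitude of the 41 members was 0.20, against 0.18 over all genes tested.

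**Figure D2:**
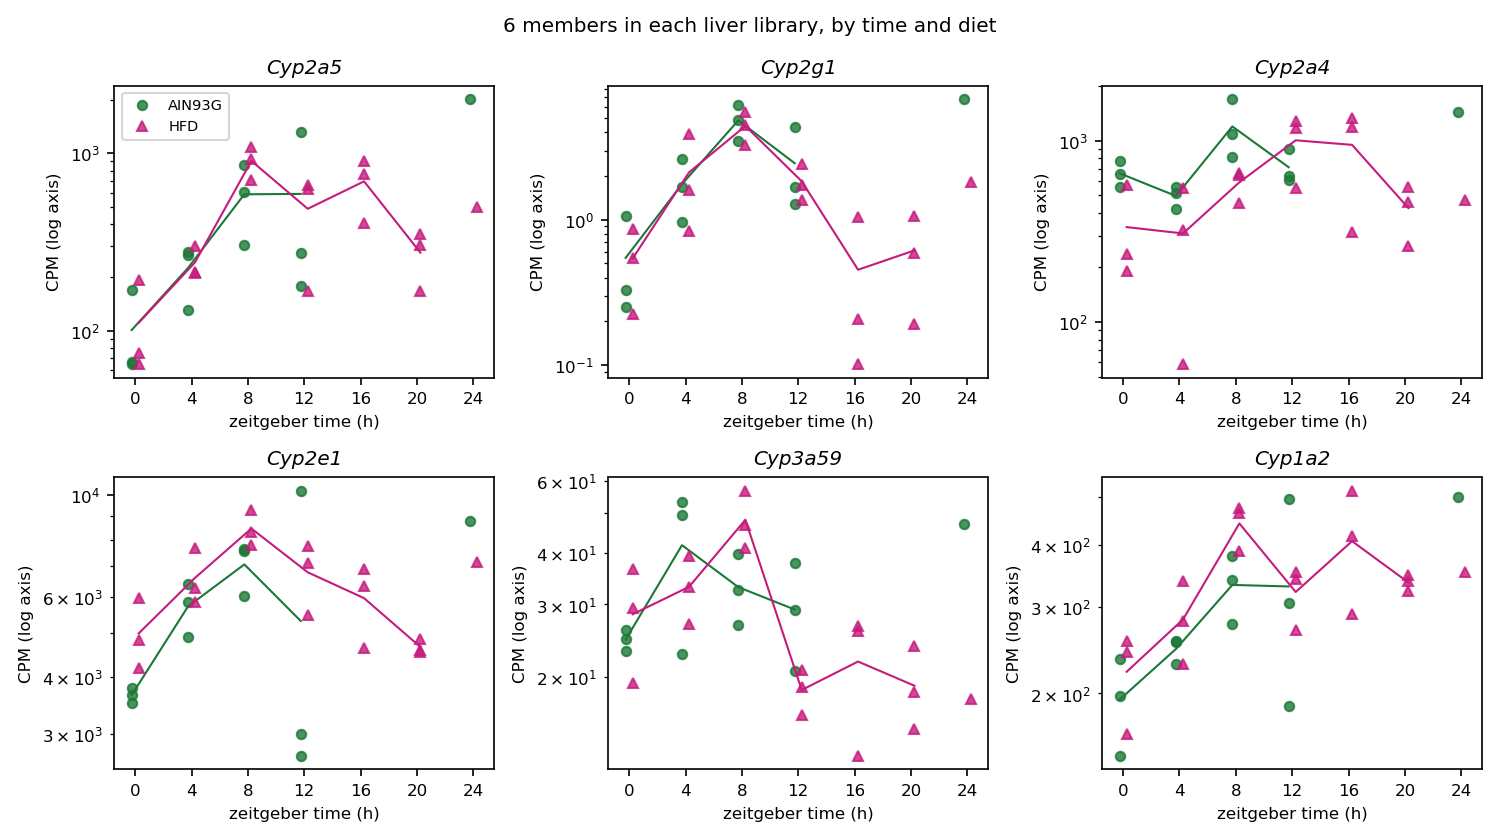
CPM of 6 members on log axes by ZT, 1 point per liver library, with circles for AIN93G, triangles for the HFD and lines through group means (none at ZT 24, with 1 liver per diet). Over ZT 0 to ZT 12, Cyp2a5 and Cyp2g1 had their lowest mean at ZT 0, and at ZT 12 the libraries of a diet lay far apart, as at 632, 662 and 167 CPM for Cyp2a5 on the HFD.

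On AIN93G alone, over ZT 0 to ZT 12, no member and 0 of all genes passed in edgeR. At an unadjusted p under 0.05 there were 4 members, against 9.6% of all genes, and DESeq2 called 2 members, where it called 1.93% of all genes. Without AIN93G ZT 12 replicate 1 (2.15% of all genes called), without ZT 12 (1.91%), or with every gene with a count kept (2.54%), 4 members were called.

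Among the most abundant members, several had narrow time courses over ZT 0 to ZT 12. The highest and lowest mean differed 1.12-fold for Cyp2d26 (edgeR, adjusted p = 0.307), 1.19-fold for Cyp2d10 (0.244), 1.10-fold for Cyp2f2 (0.744) and 1.05-fold for Cyp2j5 (0.936). None of the 4 passed. The 8 members with the lowest p on the HFD included, after those already named, Cyp2d40 (adjusted p = 0.129), Cyp3a13 (0.148) and Cyp2c38 (0.165).

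Genes that serve or regulate P450 were taken from lists set by function, and their counts stand beside the 6.32% of all genes that passed the time test over both diets. Of 5 electron donors, Por and Cyb5a passed the time test over ZT 0 to ZT 12. Por, the reductase, covered a 3.09-fold range (edgeR, adjusted p = 0.0358) and was highest at ZT 12. Of 11 genes of haem synthesis and breakdown, Alas1, the rate-limiting enzyme, passed with a 5.06-fold range (adjusted p = 0.00579), and Alad passed with 1.31-fold (0.0335).

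At ZT 12 the libraries of Alas1 were at 1583, 257 and 150 CPM on AIN93G and at 1829, 1592 and 298 CPM on the HFD. Those of Por were at 937, 95.9 and 109 CPM and at 820, 894 and 167 CPM. In both genes the high values were those of the 3 libraries with high Dbp, as for Cyp2a5.

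Of the 16 tested receptors and transcription factors that act on P450 genes, 3 passed over ZT 0 to ZT 12. These were Cebpa (1.48-fold, edgeR, adjusted p = 0.00936), Stat5b (1.55-fold, 0.0376), which transmits the growth hormone signal, and the oestrogen receptor Esr1 (1.69-fold, 0.0493). Nr1i2, which encodes PXR, had an adjusted p of 0.0974, Nr1i3, which encodes CAR, 0.567, and Ahr 0.892. The PAR bZIP list holds Dbp, Tef, Hlf and their repressor Nfil3, and all 4 passed. The range was 231-fold for Dbp (edgeR, adjusted p = 0.00241), 11.1-fold for Tef (0.00252), 1.86-fold for Hlf (0.0203) and 4.91-fold for Nfil3 (0.00373). Nfil3 was highest at ZT 0, where Cyp2a5 was lowest.

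The clock list passed with all 6 genes. Of 8 pericentral genes other than P450, Slc1a2, a glutamate transporter, passed (1.98-fold, adjusted p = 0.0211), and of 8 periportal genes none did. On the HFD from ZT 0 to ZT 20, 2.29% of all genes passed. The calls there were 0 of 5 electron donors, 1 of 11 haem genes (Alas1, edgeR, adjusted p = 0.0273) and 0 of 16 factors. In the other lists they were 2 of 4 genes of the PAR bZIP list (Tef and Dbp), 5 of 6 clock genes, 1 of 8 pericentral genes and 0 of 8 periportal genes. A repeat without ZT 12, added after the values were seen, ended the call of Esr1 over both diets (edgeR, adjusted p = 0.865) and of no other gene called in these lists. In that repeat, in which 9.79% of all genes passed over both diets and 4.49% on the HFD, 3 haem genes, 2 factors and 2 periportal genes passed over both diets, and the counts of the other lists stayed the same. On the HFD it gave 1 electron donor, 2 haem genes and 1 factor. It also gave all 4 genes of the PAR bZIP list, all 6 clock genes, 2 pericentral genes and 1 periportal gene.

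Sequence motifs bound by such factors were counted on both strands in RefSeq promoter windows of 300 bases, from 250 before to 50 after a start site, on GRCm38.p6. Windows were found for 50 of the 58 members, 53 windows in all, and Cyp2c23, Cyp2c54, Cyp2d12, Cyp2d22, Cyp2d34, Cyp2g1, Cyp2j7 and Cyp2u1 had no entry. The D-box TTATGTAA was in none of the member windows and in 0.938% of all 32851 windows, and TTACGTAA was in none and in 0.119%. The E-box CACGTG was in 1 member window, that of Cyp2j6, and in 7.15% of all windows. The xenobiotic response core GCGTG was in 18.9% of member windows (Cyp1a1, Cyp1b1, Cyp2b10, Cyp2c68, Cyp2j9, Cyp2j12, Cyp2j13, Cyp2r1 and Cyp2w1) and in 32.4% of all windows. The HNF1 motif and the DR4 nuclear receptor element were in none of the member windows and in 0.0609% and 0.0152% of all. No searched motif contains another, and a match or its absence describes only the letters of these windows.

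The diets were compared within liver libraries at ZT 0, 4, 8 and 12, where no member passed the test although several were separated by diet at ZT 0 and ZT 8. In edgeR 0 of 41 members were called at each of the 4 times, where 0.105%, 0%, 0% and 0% of all genes were. At an unadjusted p under 0.05 there were 11, 1, 13 and 4 members at ZT 0, 4, 8 and 12, against 7.62%, 3.45%, 6.79% and 4.14% of all genes. DESeq2 called 2, 0, 3 and 0 members, where it called 0.791%, 0.194%, 0.448% and 0.0373% of all genes. When every gene with a count was kept in the edgeR fit, 8, 3, 4 and 0 members were called, against 1.77%, 0.715%, 0.99% and 0% of all genes. Without AIN93G replicate 3 or HFD replicate 3 the count at ZT 0 was 2 or 1, where 0.0672% or 0.0523% of all genes were called.

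The members at ZT 0 whose diet groups did not overlap were 7 with the HFD higher and 4 with it lower, where 7.75% and 4.86% of all genes had this. At ZT 8 they were 10 higher and 2 lower (7.67% and 4.91% of all genes). At ZT 4 they were 0 higher and 1 lower (4.86% and 2.94%), and at ZT 12 0 higher and 5 lower (5.01% and 4.43%). The median log2 difference of the members, HFD minus AIN93G, was 0.08, -0.06, 0.20 and -0.19 at ZT 0, 4, 8 and 12, and that of all genes lay between -0.01 and 0.

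**Figure D3:**
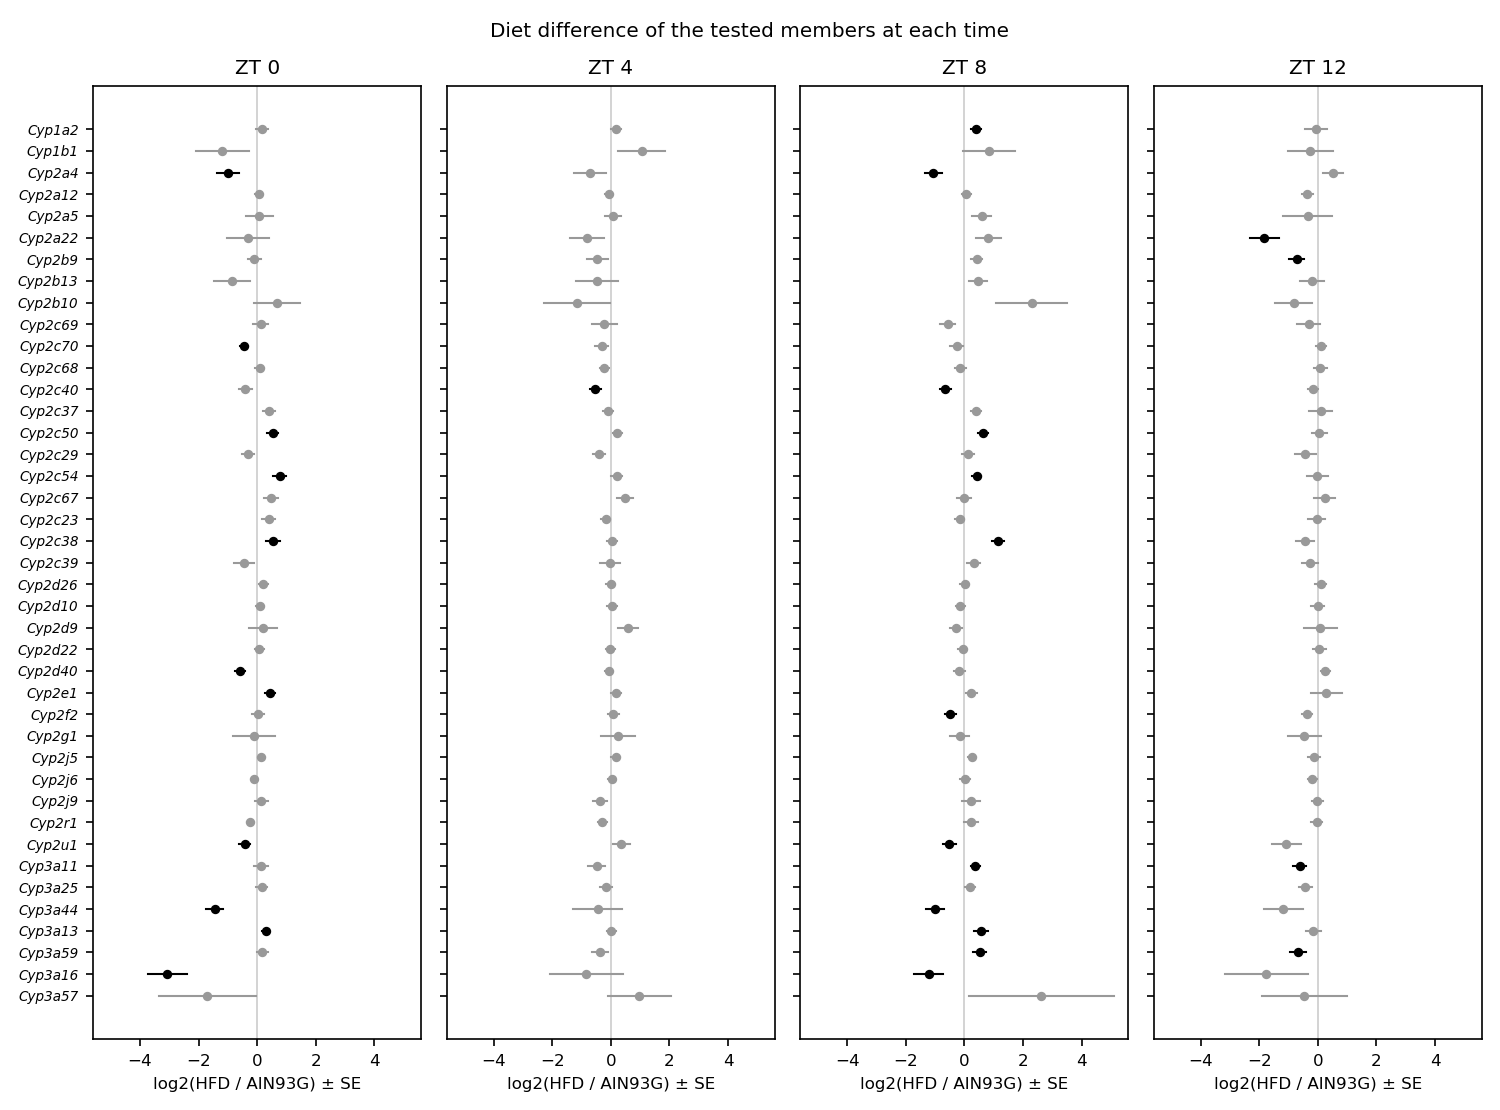
Log2 difference, HFD over AIN93G, of each of the 41 tested members at ZT 0, 4, 8 and 12, with bars for the standard error from edgeR and black points for an unadjusted p under 0.05. Cyp3a16 and Cyp3a44 lay at -3.07 and -1.45 at ZT 0, and no member passed the adjusted threshold at any of the 4 times.

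The genes lower on the HFD included Cyp3a44 and Cyp3a16, whose products are known from fetal and female liver. At ZT 0 Cyp3a44 was at 483, 380 and 192 CPM on AIN93G and at 149, 118 and 128 CPM on the HFD. Cyp3a16 was at 183, 106 and 20.1 CPM on AIN93G and at 16.5, 6.85 and 14.8 CPM on the HFD. In both genes the lowest AIN93G library lay above the highest HFD library. The log2 difference was -1.45 ± 0.29 (SE) for Cyp3a44 (edgeR, adjusted p = 0.201) and -3.07 ± 0.67 for Cyp3a16 (adjusted p = 0.261). DESeq2 called Cyp3a44 at ZT 0 (adjusted p = 2.51e-05), and without AIN93G ZT 0 replicate 3 edgeR called both genes.

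At ZT 8 the log2 differences of the same genes were -1.0 ± 0.32 and -1.22 ± 0.48 (edgeR, adjusted p = 0.713 for both). Over ZT 0 to ZT 12, with time as a factor, they were -1.01 ± 0.37 for Cyp3a44 (adjusted p = 0.425) and -1.69 ± 0.67 for Cyp3a16 (adjusted p = 0.518), and the HFD mean was below the AIN93G mean at 4 of 4 times in each.

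Among the Cyp2c genes, many of which make epoxides or hydroxy acids from arachidonic acid, directions differed. Cyp2c38 was at 88.4, 63.0 and 54.1 CPM on AIN93G and at 152, 140 and 168 CPM on the HFD at ZT 8, without overlap (log2 difference 1.14 ± 0.21, edgeR, adjusted p = 0.467). Cyp2c50 at ZT 8 was at 473, 573 and 521 CPM on AIN93G and at 769, 751 and 955 CPM on the HFD, also without overlap (0.63 ± 0.16, adjusted p = 0.713). DESeq2 called both at ZT 8, with adjusted p-values of 0.000246 and 0.0428.

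Cyp2c40, whose counts are uncertain for the sequence it shares with its neighbours, was the reverse, at 885, 902 and 669 CPM on AIN93G and 560, 423 and 606 CPM on the HFD at ZT 8. Its groups did not overlap there, with a log2 difference of -0.65 ± 0.20 (edgeR, adjusted p = 0.713). Cyp2c54 was at 176, 207 and 183 CPM on AIN93G and at 261, 445 and 259 CPM on the HFD at ZT 0, without overlap (0.76 ± 0.21, edgeR, adjusted p = 0.466; DESeq2, adjusted p = 0.0387).

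Over ZT 0 to ZT 12 the diet term was passed by 0 of 41 members in edgeR, where 0.134% of all genes passed. At an unadjusted p under 0.05 there were 6 members, against 7.83% of all genes, and DESeq2 called 1, Cyp2c40 (adjusted p = 0.0203), where it called 0.59% of all genes. In edgeR the log2 difference of Cyp2c40 was -0.43 ± 0.11 (adjusted p = 0.126), lower on the HFD at 4 of 4 times. That of Cyp2c50 was 0.37 ± 0.11 (adjusted p = 0.230) and that of Cyp2c54 0.35 ± 0.14 (adjusted p = 0.518), each higher at 4 of 4 times. Without ZT 12, Cyp2c50 was called (0.47, adjusted p = 0.0372), and without AIN93G ZT 12 replicate 1 both Cyp2c50 and Cyp2c54 were called, where 0.642% and 0.926% of all genes were called.

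Cyp2e1 had a higher HFD mean at 4 of 4 times and a log2 difference of 0.29 ± 0.17 (edgeR, adjusted p = 0.682). Across the 41 members, the HFD mean was higher at 0, 1, 2, 3 and 4 of the 4 times in 3, 13, 11, 9 and 5 members.

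Cyp3a11 lay on opposite sides of the AIN93G libraries at ZT 8 and ZT 12. At ZT 8 it was at 1510, 1436 and 1318 CPM on AIN93G and at 1962, 1756 and 1883 CPM on the HFD. At ZT 12 it was at 1903, 2246 and 2079 CPM on AIN93G and at 1117, 1073 and 1863 CPM on the HFD. The HFD libraries lay above all AIN93G libraries at ZT 8 and below them at ZT 12. At ZT 12 the AIN93G library with high Dbp was at 1903 CPM and the HFD libraries with high Dbp were at 1117 and 1073 CPM. The HFD library with low Dbp was at 1863 CPM, and the part of clock state in the diet difference was not tested. The log2 difference was 0.37 ± 0.16 at ZT 8 (edgeR, adjusted p = 0.713) and -0.63 ± 0.22 at ZT 12 (adjusted p = 0.937). The interaction of diet with time over ZT 0 to ZT 12 gave an adjusted p of 0.909.

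That interaction was passed by 0 of 41 members and 0 of all genes in edgeR. At an unadjusted p under 0.05 there were 4 members, Cyp2c38, Cyp2d40, Cyp3a59 and Cyp3a11, against 5.35% of all genes. DESeq2 called 0 members, and 2 were called when every gene with a count was kept, where 0.264% of all genes were. In the lists of electron donors, haem genes, receptors and factors, PAR bZIP genes, clock genes and pericentral and periportal genes, 0 genes were called for diet at ZT 0, 4, 8 or 12.

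Members with sex-biased expression differed in how far they varied among livers, and in each diet the fold range was widest for Cyp3a16 and narrowest for Cyp2c40. The female-biased list was Cyp2b9, Cyp2b13, Cyp2a4, Cyp3a16, Cyp3a44, Cyp2c40 and Cyp2c69, and the male-biased gene was Cyp2d9, a testosterone hydroxylase. In mice, the pattern of growth hormone release sets these genes apart by sex. The 19 HFD livers include those of ZT 16 and ZT 20, times without an AIN93G liver, so the ranges by diet are given over the 12 livers per diet of ZT 0 to ZT 12. Cyp3a16 ranged there from 5.43 to 229 CPM (median 73.0) on AIN93G and from 0.178 to 105 CPM (median 15.7) on the HFD. Cyp3a44 ranged from 99.4 to 483 CPM (median 276) on AIN93G and from 8.80 to 281 CPM (median 122.8) on the HFD.

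The sequences directly before Cyp3a16 (chromosome 5, 145436309 to 145469723, minus strand) and Cyp3a44 (chromosome 5, 145773983 to 145805874, minus strand) show how alike these neighbours are. They are from RefSeq on GRCm38.p6, minus strand, at chr5:145469724-145469973 for Cyp3a16 and at chr5:145805875-145806124 for Cyp3a44, written 5′ to 3′ towards the gene. Capitals mark paired bases that differ.
Cyp3a16: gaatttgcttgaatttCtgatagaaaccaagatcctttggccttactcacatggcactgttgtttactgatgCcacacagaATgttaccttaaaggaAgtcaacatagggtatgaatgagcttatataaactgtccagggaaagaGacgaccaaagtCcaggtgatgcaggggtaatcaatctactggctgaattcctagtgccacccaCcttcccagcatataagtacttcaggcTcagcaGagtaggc
Cyp3a44: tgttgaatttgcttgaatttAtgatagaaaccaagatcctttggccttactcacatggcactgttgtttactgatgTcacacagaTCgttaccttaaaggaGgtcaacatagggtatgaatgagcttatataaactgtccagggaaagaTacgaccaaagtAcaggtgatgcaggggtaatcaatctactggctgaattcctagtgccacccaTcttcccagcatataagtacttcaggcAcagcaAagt
Of 246 aligned bases 236 were identical, 95.9%, and 10 differed. Over the exons, 0.123% of the stretches of 100 bases of Cyp3a16 and 5.37% of those of Cyp3a44 were shared with another gene.

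Low values of Cyp3a16, Cyp3a44, Cyp2b13 and Cyp2b9 fell in the 3 livers with the highest Cyp2d9, though not in these alone. They were replicate 3 of HFD ZT 4, replicate 3 of HFD ZT 16 and the HFD liver of ZT 24, singled out here after their values were seen. Cyp3a16 was at 0.178, 0.303 and 0.456 CPM in these 3 livers. Cyp3a44 was at 8.80, 13.6 and 43.9 CPM, and Cyp2b13 at 5.18, 0.807 and 14.5 CPM. The genes did not always fall together, since replicate 2 of HFD ZT 12 had 0.225 CPM of Cyp3a16 but 36.3 CPM of Cyp2b13. The HFD liver of ZT 24 had 847 CPM of Cyp2c40, the highest of the HFD livers, and 592 CPM of Cyp2c69. A further liver, replicate 2 of HFD ZT 20, was low in several of these genes, with 1.01 CPM of Cyp3a16, 13.7 of Cyp2b13, 264 of Cyp2a4 and 402 of Cyp2c69, at 181 CPM of Cyp2d9. The summed level of the female-biased list was 1003 and 1184 CPM in the livers of ZT 4 and ZT 16, 1516 CPM in that of ZT 20 and 2141 CPM in that of ZT 24.

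In the other 2 livers of HFD ZT 16, Cyp3a16 was at 14.2 and 5.35 CPM and Cyp2b13 at 155 and 107 CPM, all above the third liver. Cyp2b9 showed the same order, with 194, 95.2 and 173 CPM in the 3 livers and 623 and 485 CPM in the others of HFD ZT 16. The male-biased Cyp2d9 was at 353, 391 and 464 CPM in the 3 livers, and these were the only liver libraries above 350 CPM. Over ZT 0 to ZT 12 Cyp2d9 ranged from 80.0 to 320 CPM on AIN93G and from 74.5 to 353 CPM on the HFD.

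Of the 3 livers, that of ZT 16 was the one with Xist at 0.606 CPM. In liver libraries other than replicates 2 and 3 of HFD ZT 16, Xist was at 554 to 1502 CPM, and its part in the members' values was not tested. The factors Cux2 and Bcl6, which act on sex-biased liver genes, were at 31.6, 12.3 and 24.2 CPM and at 62.5, 37.4 and 21.03 CPM in the 3 livers. Over all HFD livers they ranged from 7.53 to 66.4 CPM and from 9.20 to 62.5 CPM.

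**Figure D4:**
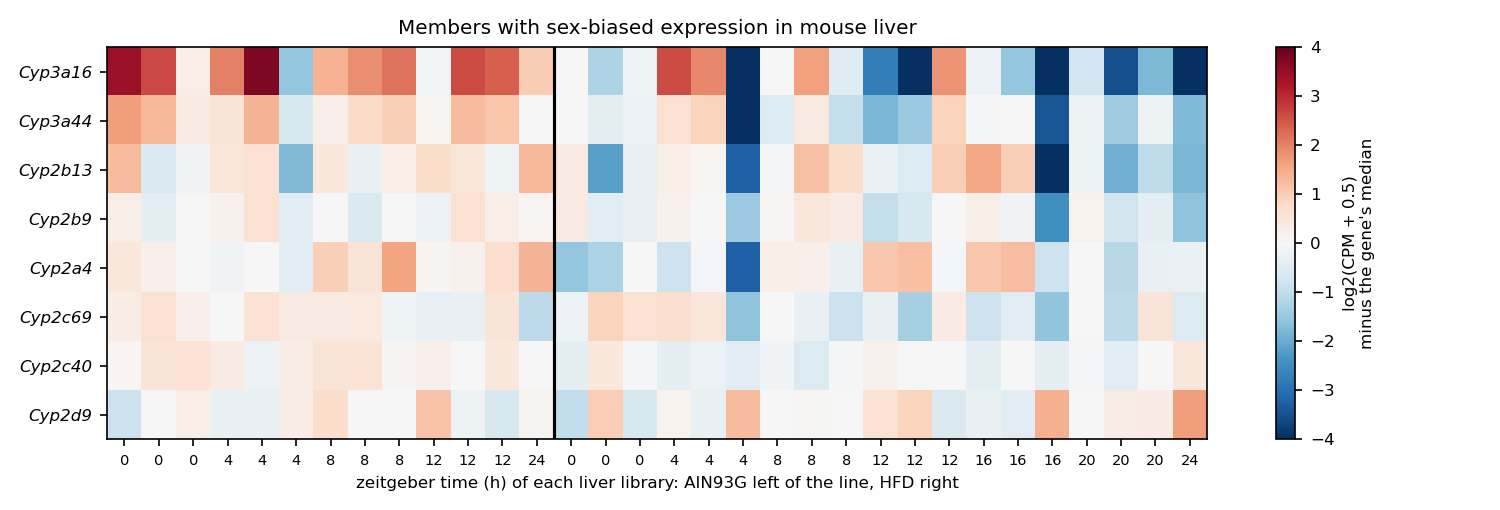
Heat map of the female-biased members and Cyp2d9 (bottom) in each liver library, with AIN93G left and the HFD right of the line, as log2(CPM + 0.5) minus the median of the gene, on a colour scale that ends at 4 in either direction. Cyp3a16 varied most, and replicate 3 of HFD ZT 4 and of HFD ZT 16 were dark blue in Cyp3a16 (0.178 and 0.303 CPM) and red in Cyp2d9 (353 and 391 CPM).

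The other genes of the list spanned different ranges over the 12 livers per diet of ZT 0 to ZT 12. Cyp2c40 covered 532 to 935 CPM on AIN93G and 423 to 827 CPM on the HFD, and Cyp2c69 covered 680.4 to 1298 and 277 to 1591 CPM. Cyp2a4 covered 421 to 1694 CPM on AIN93G and 58.4 to 1290 CPM on the HFD, where the lowest value was replicate 3 of ZT 4. At ZT 0, the log2 difference of Cyp2a4 between the diets was -1.01 ± 0.37 (edgeR, adjusted p = 0.588), and at ZT 8 it was -1.06 ± 0.29 (adjusted p = 0.713). DESeq2 called Cyp2a4 at ZT 8 (adjusted p = 0.0369) and not at ZT 0 (0.726). In edgeR it was called at ZT 0 without HFD ZT 0 replicate 3 (adjusted p = 0.0423), and at both times with every gene with a count kept (adjusted p = 1.27e-08 at ZT 0 and 0.00285 at ZT 8).

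In the adipocyte-rich libraries most members were at or near 0, and Cyp2e1 remained. Its level there was 220 to 591 RPKM with a median of 415, 14.9% of the liver median by CPM, where Alb was at 0.0623% of its liver median. Cyp2e1 made up 85.4 to 93.2% of the summed RPKM of the members, which was 257 to 643. The 8 members with at least 0.5 RPKM in all 10 libraries were Cyp2e1, Cyp2d22, Cyp2j6, Cyp2f2, Cyp3a57, Cyp1b1, Cyp2j9 and Cyp2u1. The libraries were told apart by a measured gene, so their levels are a description without a test.

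The libraries of AIN93G held Cyp2e1 at 682, 851 and 1243 CPM at ZT 16 and at 569, 475 and 1014 CPM at ZT 20. At ZT 24 the adipocyte-rich libraries were at 675 and 963 CPM on AIN93G and at 939 and 1274 CPM on the HFD. The liver of the same time was at 8773 CPM on AIN93G and 7146 CPM on the HFD. The highest adipocyte-rich library lay below the lowest liver library, which was at 2692 CPM.

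Cyp2d22, often set beside human CYP2D6, had a median of 8.55 RPKM (5.81 to 14.8), 17.8% of its liver level. Cyp2j6 had 7.16 RPKM (5.92 to 8.64), 41.8% of its liver level. Cyp2f2 had 6.17 RPKM (1.12 to 14.2), 2.78% of its liver level.

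Cyp2j9 was at 2.24 RPKM (1.83 to 2.74) and Cyp2u1 at 1.95 RPKM (1.28 to 4.32), 74.8% and 57.6% of their liver levels by CPM. Over all 41 tested members, 31 had a median under 1% of the liver median, and 21 of the 58 had at most 3 counts in each of the 10 libraries.

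Cyp1b1, an enzyme of steroid and polycyclic hydrocarbon oxidation known mainly outside liver, was higher in the adipocyte-rich libraries. It was at 15.4, 21.03 and 12.2 CPM at ZT 16 and 12.0, 10.1 and 14.5 CPM at ZT 20 on AIN93G. At ZT 24 it was at 15.5 and 16.8 CPM on AIN93G and at 36.8 and 29.6 CPM on the HFD. No liver library was above 1.07 CPM.

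Cyp3a57 was also higher, at 3.92, 14.3 and 41.2 CPM at ZT 16 and 3.14, 4.47 and 5.21 CPM at ZT 20 on AIN93G. No liver library had more than 0.634 CPM of Cyp3a57. Cyp2b10, the classic target of CAR, was the third with a higher median than in liver among the members past the count filter. Its libraries lay at 0 to 10.6 CPM, a range that covers the 0 to 7.95 CPM of liver.

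**Figure D5:**
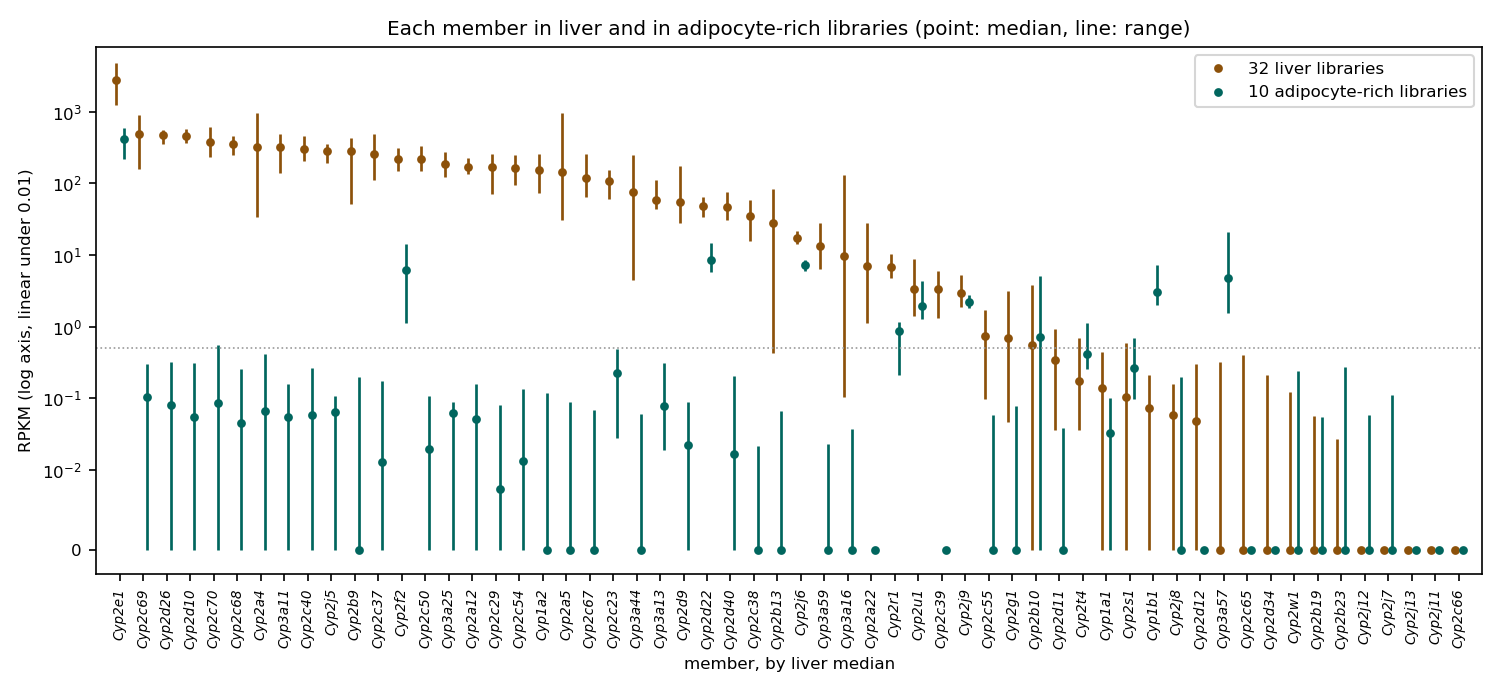
Median (point) and range (line) of RPKM of each of the 58 members in 32 liver and 10 adipocyte-rich libraries, in order of the liver median, on an axis that is logarithmic above 0.01 and linear below, with a dotted line at 0.5 RPKM. Cyp2e1 was highest in both, at 2774 and 415 RPKM, and Cyp1b1 and Cyp3a57 stood above their liver ranges.

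Other tissue markers were also higher in these libraries, and their part in the members' values was not tested. The summed level of 5 fibroblast markers was 3773 to 9736 CPM against 163 to 288 CPM in liver. That of 3 brown adipocyte markers was 52.3 to 1376 CPM against 5.55 to 43.2 CPM, and that of 5 lymphocyte markers was 2.33 to 539 CPM against 0.952 to 4.46 CPM. The 10 hepatocyte markers summed to 27.9 to 116.6 CPM against 109700 to 156500 CPM in liver, and the 3 Kupffer cell markers to 0.966 to 10.2 CPM against 221 to 691 CPM.

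The label-based comparison of the diets at ZT 16 and ZT 20 set HFD liver libraries against AIN93G adipocyte-rich libraries. At each time 40 of 41 members were called in edgeR, 38 higher on the HFD and 2 lower, where 27.7% and 28.4% of all genes were called higher and 28% and 30.2% lower. The exception was Cyp2b10 (adjusted p = 0.142 at ZT 16 and 0.323 at ZT 20). Of the 41 members, 31 reached the count filter's mean of 25 in liver libraries only and 2, Cyp1b1 and Cyp3a57, in adipocyte-rich libraries only, so these counts follow from the filter and the tissue and support nothing on diet. In bulk RNA, fewer hepatocytes and less RNA per hepatocyte cannot be told apart.

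The folds that follow are ratios of mean CPM, scaled by library totals without TMM, and the log2 differences are from edgeR after TMM, so one cannot be converted into the other. By mean CPM Cyp2e1 was 6.44-fold higher at ZT 16 and 6.79-fold higher at ZT 20 in the HFD libraries. Its log2 difference after TMM was 3.53 ± 0.39 at ZT 16 and 3.39 ± 0.34 at ZT 20 (edgeR, adjusted p = 0.000267 and 5.2e-05). Cyp2d22 was 6.92-fold and 5.61-fold higher, Cyp2j6 2.56-fold and 1.96-fold, and Cyp2f2 34.1-fold and 23.2-fold. Cyp2j9 was 1.37-fold and 1.45-fold and Cyp2u1 1.93-fold and 1.29-fold higher, and scaling by library size alone, which moved the median of all genes to -0.86 at ZT 16 and -0.67 at ZT 20 on the log2 scale, ended the calls of these 2 genes.

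At each of these times 23 members had all AIN93G libraries at or under 3 counts and the HFD above, 19 of them at both times, and for these only a lower bound can be given. A further 11 members at each time were at or under 3 counts in both diets, and no fold is given for them. Cyp1a2 was at least 2182-fold higher in HFD libraries of ZT 16 and at least 1847-fold higher in those of ZT 20. For Cyp2b9 the bounds were 2148-fold and 2410-fold, and for Cyp2c29 2356-fold and 2907-fold. The 2 genes in the other direction were Cyp1b1, 59.3-fold and 49.2-fold higher on AIN93G, and Cyp3a57, at least 96.3-fold and 22.5-fold higher on AIN93G.

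The 17 members under the count filter were not tested. Among them Cyp2s1 and Cyp2t4 had over 3 counts in all 10 adipocyte-rich libraries and medians of 0.267 and 0.413 RPKM there, against 0.105 and 0.175 RPKM in liver. Cyp1a1, the inducible AhR target, reached at most 1.25 CPM in liver. Cyp2c55 reached at most 3.44 CPM in liver and at most 2 counts in an adipocyte-rich library.

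Of the protein-coding genes that the naming rule left out, Cyp3a41a had a liver median of 43.7 CPM with a range of 0.0505 to 199.4 CPM, and Cyp3a41b had a median of 6.71 CPM.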

How the data were processed

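Poly(A) RNA of 42 mice was sequenced as NEBNext Ultra libraries, 3 per diet and time point, for the authors by a company. A single table of raw counts for each gene was deposited by the authors without normalization. The submitters' processing notes name fastp, STAR, HTSeq 0.6.1 and mm10, and the strand setting is not given in the sources used here, so overlapping genes are uncertain. Groups came from the labels. What the numbers in the titles stand for is not given in the sources used here, and replicates were numbered in the order of the records.

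R 4.3.3 was used with edgeR 4.0.16, DESeq2 1.42.0 and limma 3.58.1. The 13394 of 54532 genes that averaged 25 counts or more across the 42 libraries entered the quasi-likelihood F-test in edgeR, with TMM normalization, in fits of the libraries each comparison names, and p-values were adjusted by Benjamini-Hochberg over all genes tested, with a threshold of 0.05. All adjusted p-values are from edgeR unless DESeq2 or limma is named. CPM and RPKM were computed from the total counts, folds are ratios of mean CPM, and log2 differences are from the fits. A group with at most 3 counts in each library was taken as being at the floor, which covers counting error only. The tests were checked on simulated counts. The p-values measure the spread between the samples of a group.

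Members named with values were those past the threshold in a diet comparison of ZT 0 to ZT 12, the highest of each subfamily and the 8 highest, the 8 lowest p-values and the called cosine amplitudes on the HFD, those with at least 0.5 RPKM in every adipocyte-rich library, the sex-biased list and those nearest the filter. Other members named were chosen after their values were seen, among them Cyp2c23, Cyp1a2 in the time test, Cyp2c38, Cyp2c50, Cyp2c54, Cyp3a11, Cyp2a22, Cyp2c29 and the traces of Cyp3a41a and Cyp3a41b. The members and all lists were chosen with earlier results of these data known.

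Alternatives were DESeq2, library-size scaling, other gene filters, 1 fit over more libraries, limma for the cosine, leaving out ZT 12 (for the listed genes added after the data were seen) and leaving out each library. All 42 pairs of libraries within a group differed beyond sampling noise (chi-square divided by its degrees of freedom was 16.0 or more).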

Additional observations from a re-analysis of the deposited data

Results flagged for a closer look

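Cyp3a11 stood out because its diet groups were separated in opposite directions at ZT 8 and ZT 12. Every HFD library lay above every AIN93G library at ZT 8 and below at ZT 12. At ZT 12 Dbp was high in AIN93G replicate 1 and in HFD replicates 1 and 2, so clock state was not balanced between the diets. The part of clock state was not tested. The difference between the times was tested as the interaction of diet with time over ZT 0 to ZT 12 and gave an adjusted p of 0.909 in edgeR.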

How the results depend on the processing

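No paired analysis was possible because what the numbers in the titles stand for is not given in the sources used here, and replicates were numbered in the order of the records. Of 217 counts of called members recomputed under alternatives, 191 stayed within 1.5 times the reported count. DESeq2 called 2 members for diet at ZT 0, 3 at ZT 8 and 1 over ZT 0 to ZT 12, and for time 7 in both diets, 8 on the HFD, 2 on AIN93G and 8 with the cosine. The shares of all genes called by DESeq2 in these tests, in the same order, were 0.791%, 0.448%, 0.59%, 10.7%, 11.3%, 1.93% and 12.4%. With every gene with a count kept, the calls were 8, 3 and 4 at ZT 0, ZT 4 and ZT 8, 1 for the diet term, 2 for the interaction, and 7, 18, 4 and 8 for the time tests in the same order. The shares of all genes there were 1.77%, 0.715% and 0.99%, 0.291%, 0.264%, and 4.4%, 8.16%, 2.54% and 4.59%. Without ZT 12 they were 1 for the diet term, 5 for time on the HFD and 4 on AIN93G, where 0.642%, 4.49% and 1.91% of all genes were called. Leaving out 1 library gave 0 to 2 for diet at ZT 0, 0 to 2 for the diet term, 1 to 5 for time on the HFD and 0 to 4 on AIN93G. In those fits the share of all genes called ran from 0.00747% to 0.261% for diet at ZT 0, from 0.00747% to 0.926% for the diet term, from 1.25% to 7.73% for time on the HFD and from 0% to 2.15% on AIN93G. The cause of these moves was not tested. Library-size scaling left 36 members higher and 2 lower on the HFD at ZT 16 and ZT 20. Of 1023 values of single genes, 43 lost a call and 24 gained one. Direction was compared in the diet comparisons only, those of ZT 16 and ZT 20 with their difference in tissue included, and 0 values changed it there. The values of time and of the cosine have no direction that could change. With 3 mice per group, differences smaller than the spread between mice could not be detected, and counts under 25 on average were not tested.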
